A study of Arabidopsis thaliana with 2 samples.

Results

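Berberine bridge enzyme-like genes encode flavoprotein oxidases, and 10 of them, chosen by locus ID, were described here out of 33602 loci with a count. The reference annotation lists 27 Arabidopsis genes with a berberine-family product. The 10 members are AT1G26390, AT1G26400, AT1G26410, AT1G26420, AT1G30700, AT1G30720, AT1G30730, AT4G20830, AT4G20860 and AT5G44360. FOX1 (AT1G26380) was left out of the members and is given among the 17 other family genes. The reference annotates each of the 10 as a FAD-binding berberine family protein, so the label fits the annotation.

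The family is named after the berberine bridge enzyme of poppy relatives, which closes a ring in alkaloid synthesis. Its plant members are mostly secreted proteins that hold the cofactor FAD by covalent bonds, oxidise a sugar, an alcohol or an alkaloid, and in many cases pass the electrons to oxygen, which yields hydrogen peroxide. In Arabidopsis some members oxidise fragments of pectin or cellulose and thereby lower the activity of these fragments as damage signals, others act on lignin precursors, and FOX1 acts in the synthesis of a defence compound from tryptophan.

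The samples were explants of the first-pair rosette leaves of Arabidopsis thaliana, ecotype label pER8:3xFlag-NAC1/Col-0, taken at 12 days after sowing. Both groups carry the same transgene, 3xFlag-tagged NAC1, which codes for a transcription factor, in pER8, a vector whose inserted gene is switched on by estradiol. The estradiol group was cultured on B5 medium with estradiol dissolved in DMSO, and the control group on B5 medium with DMSO alone. The design text names the question as which genes NAC1 raises. In pER8 the activator that binds estradiol is made from a constitutive promoter, so the vector is not designed to limit induction to a cell type. Where in the explants NAC1 was induced cannot be seen from these counts. The sources used here do not say how long the explants were treated, whether the line is a clone or whether explants were pooled. No estradiol-treated line without the transgene was analysed here, so effects of estradiol itself and of NAC1 cannot be told apart.

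The control library held 39799127 gene counts and the estradiol library 48350705, with 1 library a group. There are no replicates, so no test was run, and every difference below is between 2 libraries. NAC1 (AT1G56010), the induced gene, had 466 counts against 28380 with estradiol, in the direction of the labels. Reads of the transgene and of the native gene were not separated, and the locus overlaps other annotated genes. Markers of leaf mesophyll were abundant in both, with a summed level over 5 genes of 7864 CPM (counts scaled to library size) in the control library against 4794 CPM with estradiol. Of these 5, CAB3 and LHCB2.1 were lower by the rule given below, at log2 ratios of -1.98 and -2.04, and RBCS1A, at -0.41, was not. Root epidermis and hair markers summed to 0.683 and 2.92 CPM over 5 genes, and 2 of them, EXPA7 and EXPA18, were at 0 in both, while RHD2, with 25 and 139 counts, was higher and made up most of both sums. Guard cell markers summed to 35.8 and 26.8 CPM, the phloem marker SUC2 was at 183 and 153 CPM, and 3 xylem markers summed to 13.9 and 21.0 CPM, of which XCP1 was higher (6.25 and 15.0 CPM) and IRX3 was at 7.03 and 5.30 CPM. The trichome gene AT3G27920 was at 0 in both libraries, and of the seed markers SESA4 was at 0 in both and CRA1 had 2 and 0 counts. In whole explants a change in the share of a cell type and a change in RNA per cell cannot be told apart, and the part of these markers in the results below was not tested.

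The upstream sequences of 5 members are shown first, because these genes span the largest, the intermediate and the smallest ratios among the members. Each run is the 300 bases before the annotated gene start in the TAIR10.1 reference of RefSeq, written 5′ to 3′ on the strand of the gene. Capitals mark TTGAC or its reverse complement GTCAA, the core bound by WRKY transcription factors. The windows are chr1:9131780-9132079 (minus strand), chr1:9140440-9140739 (minus), chr1:9143337-9143636 (minus), chr4:11155153-11155452 (plus) and chr4:11172322-11172621 (plus).
AT1G26390: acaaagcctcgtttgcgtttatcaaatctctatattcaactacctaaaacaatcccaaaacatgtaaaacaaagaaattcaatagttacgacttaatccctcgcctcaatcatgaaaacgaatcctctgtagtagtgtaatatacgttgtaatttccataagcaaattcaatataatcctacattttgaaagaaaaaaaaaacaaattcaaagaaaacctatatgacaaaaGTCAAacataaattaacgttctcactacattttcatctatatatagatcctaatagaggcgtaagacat
AT1G26410: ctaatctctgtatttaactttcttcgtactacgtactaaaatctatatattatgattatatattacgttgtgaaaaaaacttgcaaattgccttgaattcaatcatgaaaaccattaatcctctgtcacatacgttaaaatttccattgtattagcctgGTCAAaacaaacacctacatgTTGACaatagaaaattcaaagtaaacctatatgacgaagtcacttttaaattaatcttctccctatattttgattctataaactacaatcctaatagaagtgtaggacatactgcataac
AT1G26420: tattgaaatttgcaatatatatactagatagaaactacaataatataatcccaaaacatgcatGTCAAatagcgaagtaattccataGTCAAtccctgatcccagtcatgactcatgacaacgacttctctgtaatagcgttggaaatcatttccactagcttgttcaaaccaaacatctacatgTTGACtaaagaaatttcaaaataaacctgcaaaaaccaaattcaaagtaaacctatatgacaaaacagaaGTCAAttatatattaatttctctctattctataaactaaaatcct
AT4G20830: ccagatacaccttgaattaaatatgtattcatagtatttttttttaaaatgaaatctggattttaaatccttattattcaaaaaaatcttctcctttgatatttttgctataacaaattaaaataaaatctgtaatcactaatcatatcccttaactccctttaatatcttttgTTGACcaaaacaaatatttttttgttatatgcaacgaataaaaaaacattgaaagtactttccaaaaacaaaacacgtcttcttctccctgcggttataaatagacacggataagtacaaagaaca
AT4G20860: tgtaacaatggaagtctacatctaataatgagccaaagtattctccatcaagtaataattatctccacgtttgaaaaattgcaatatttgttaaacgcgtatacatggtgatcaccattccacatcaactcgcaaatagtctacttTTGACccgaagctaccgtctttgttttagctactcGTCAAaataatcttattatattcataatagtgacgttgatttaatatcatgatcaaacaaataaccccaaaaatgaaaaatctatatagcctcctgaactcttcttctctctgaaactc

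AT1G26390 and AT1G26420 were higher in the estradiol library, and no member was lower. A gene is called higher or lower here where the whole exact 95% counting interval of its ratio of estradiol to control lies above 2 or below 0.5. A gene counts as measured with at least 10 counts in 1 or more libraries. Of the 10 members 8 were measured, 2 of them were higher, 0 were lower and 6 were neither, while of all 20274 measured genes 5.38% were higher and 4.64% lower. The median log2 ratio of the 8 was 1.02, with values from -0.65 to 6.67, beside a median of 0.01 over all measured genes. With 2 calls among so few genes, nothing is read from the share. Past 4-fold AT1G26390 and AT1G26420 were still higher, beside 2.31% of all measured genes higher and 0.794% lower. They were also higher with an assumed coefficient of variation of 0.2 between libraries added to counting error, beside 3.45% higher and 1.94% lower.

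**Figure D1:**
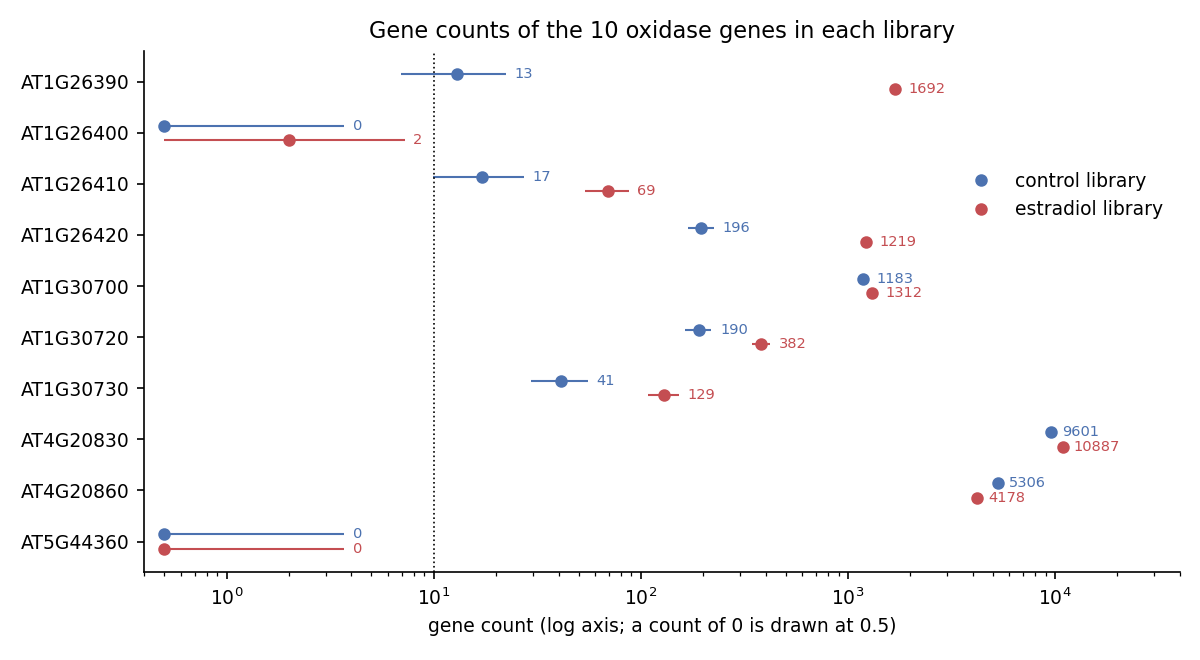
Gene counts of the 10 members in the control (blue) and estradiol (red) library on a log axis, with exact 95% Poisson intervals as lines and the minimum of 10 counts as a dotted line. AT1G26390 stands apart with 13 and 1692 counts, AT4G20830 is the highest in both libraries, and AT1G26400 and AT5G44360 lie below the minimum.

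The run of 4 members on the short stretch from AT1G26390 to AT1G26420 holds both calls. These genes lie next to each other on chromosome 1, from 9130013 to 9143336 in TAIR10.1, all on the minus strand, each with 1 exon. FOX1, which converts an indole cyanohydrin in the route to 4-hydroxyindole-3-carbonyl nitrile, is the next gene on the side of AT1G26390. The coding sequences of the 4 members are 85.8% to 87.6% identical to each other in pairwise global alignments, and 85.8% to 87.6% identical to that of FOX1.

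AT1G26390 had 13 counts in the control library against 1692 with estradiol. In the control it was near the minimum, with an exact Poisson interval of 6.92 to 22.2 counts, and it reached 34.7 CPM with estradiol. The ratio was 106-fold (95% counting interval 61.6 to 199), and by the lower bound of the interval AT1G26390 ranked 32 among 20274 measured genes. The shared sequence is small: 1.86% of the 50-base stretches of its transcript also occur in AT1G26400 or AT1G26410, and none of 100 bases occurs in a transcript of another locus.

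AT1G26420, at the other end of the run, had 196 counts without and 1219 with estradiol. This gene was already well above the minimum in the control, and it was 5.05-fold higher with estradiol (4.34 to 5.90). No 50-base stretch of its transcript occurs at another locus. Its ratio and that of AT1G26390 had intervals that did not overlap, and the difference itself was not tested.

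AT1G26410 was at 17 and 69 counts. The ratio was 3.29, but its interval of 1.92 to 5.97 includes 2, so the gene was not called at this depth. Its closest relative in coding sequence is AT1G26420, at 87.6% identity.

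AT1G26400, placed between AT1G26390 and AT1G26410, was at 0 and 2 counts. Both values are below the floor of 3 counts, equal to 0.0759 CPM for the control library and 0.0616 CPM for the other, so no fold is given. The gene is annotated with both ends marked as partial. Thus 3 of the 4 neighbours were measured and the fourth was not detectable above the floor, although it is 86.8% identical in coding sequence to AT1G26420.

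Summed over the 4 genes of this run, counts went from 226 to 2982, a ratio of 10.7 (9.35 to 12.3). AT1G26390 made up 1692 of the 2982 counts. FOX1 beside the run had 142 and 1186 counts, a ratio of 6.78 (5.69 to 8.12), between the values of AT1G26390 and AT1G26420, with an interval that overlaps that of AT1G26420. FOX1 is the closest relative of AT1G26390, at 87.6% identity, and it shares no 50-base stretch with any other locus. Outside the family, the helicase gene AT1G26370 on the far side of FOX1 had a log2 ratio of -0.07 and UPS5, a ureide permease gene past the other end, 0.29.

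**Figure D2:**
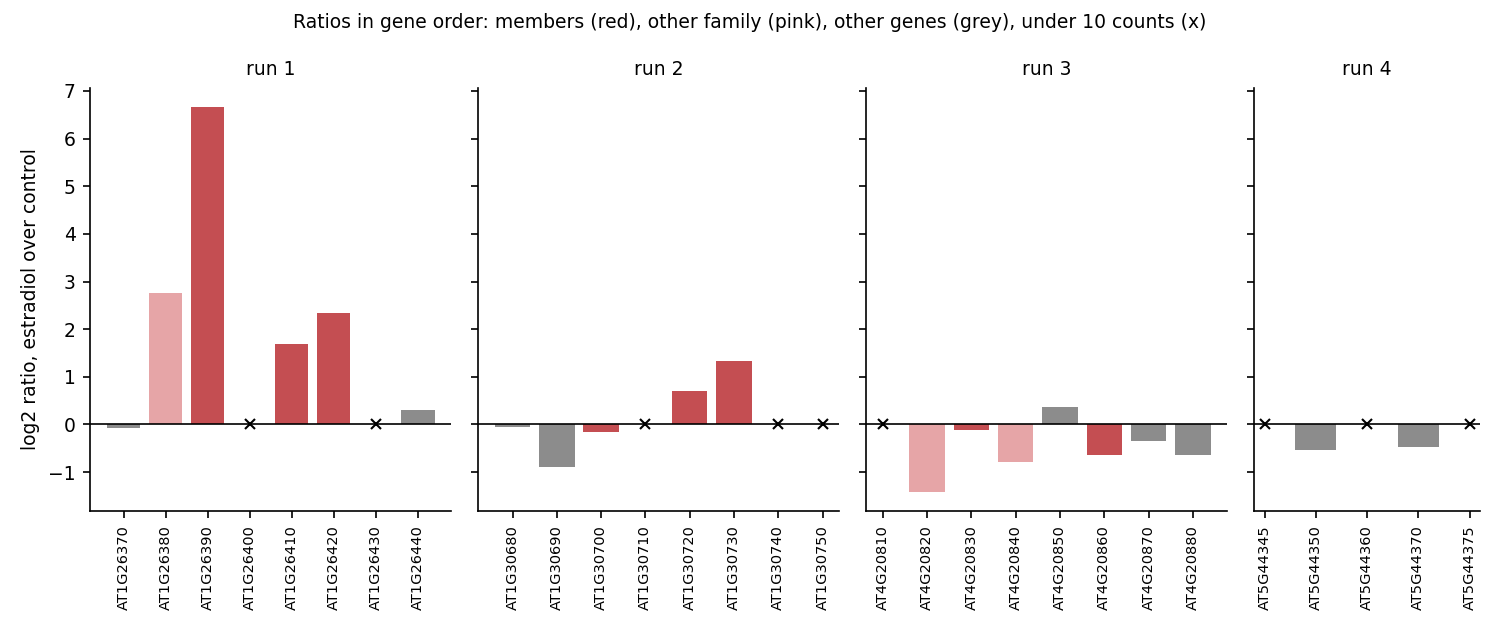
Log2 ratios of estradiol to control in the order of the genes on the chromosome for each run of members with 2 genes on each side. Members are red, other family genes pink and genes outside the family grey, and crosses mark genes under 10 counts in both libraries. Bars of the measured family genes of run 1 run from 1.69 to 6.67. AT1G30730 in run 2 is at 1.34, AT4G20820 in run 3 is at -1.41, and grey bars run from -0.89 to 0.37.

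The second run, AT1G30700 to AT1G30730, lies on chromosome 1 from 10892445 to 10902626, on the plus strand. None of its 3 members was called. AT1G30700 had 1183 and 1312 counts, a ratio of 0.900 (0.831 to 0.974). AT1G30720 had 190 and 382 counts, a ratio of 1.63 (1.37 to 1.95). Its whole counting interval lies above 1 and below 2, but with the assumed variation added the interval includes both. AT1G30730 had 41 and 129 counts, a ratio of 2.55 (1.78 to 3.72), so its interval includes 2.

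AT1G30720 and AT1G30730 are near copies of each other, with 85.1% identity in coding sequence, and both were at ratios above 1. They share 30 of their 50-base stretches, 1.58% of those of AT1G30730. AT1G30700 is farther from both, at 62.0% and 61.9% identity, and was at a ratio below 1. Its closest relative in the family is AT4G20830, at 66.0%. The family gene AT1G30710 inside the run had 0 and 4 counts, and AT1G30740 beyond it had 3 and 0. The lipid-transfer gene AT1G30690 just before the run was at a log2 ratio of -0.89. Summed over the 3 members, counts went from 1414 to 1823, a ratio of 1.05 with an interval of 0.975 to 1.12 that includes 1.

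The members on chromosome 4 are known to oxidise wall fragments, and they were the most abundant of the 10 in both libraries. AT4G20830 encodes an enzyme known to oxidise oligogalacturonides, the pectin fragments released by polygalacturonases. Its counts were 9601 without and 10887 with estradiol, a ratio of 0.920 (0.895 to 0.946). With its many counts the counting interval excludes 1, but the gene lies far from the threshold of 0.5. With the assumed variation between libraries added, the interval includes 1. The locus overlaps AT4G20835, a gene annotated on the opposite strand that has no row in the count tables. Of the 50-base stretches of AT4G20830, 40.9% also occur, read on the opposite strand, in AT4G20835, so, with the strand setting not given, part of its count may come from the partner and its level is uncertain.

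AT4G20860 encodes an enzyme known to oxidise cellodextrins, short fragments of cellulose. Its counts were 5306 without and 4178 with estradiol, a ratio of 0.639 (0.613 to 0.666), the lowest of the 8 measured members and not called. No 50-base stretch of its transcript occurs at another locus, but its annotated span overlaps that of FAH2 (AT4G20870, with 1314 and 1276 counts) on the opposite strand, so its count too is uncertain while the strand setting is unknown. AT4G20840, a near copy of AT4G20830 (86.9% identity) also known to oxidise oligogalacturonides, lies between these members and had 1078 and 767 counts, a ratio of 0.577 (0.526 to 0.634). AT4G20820, before AT4G20830, had 59 and 27 counts, a ratio of 0.371 (0.226 to 0.595). All 4 measured family genes of this stretch thus had ratios below 1, and none was called lower. Outside the family, TPP2, a tripeptidyl peptidase gene between AT4G20840 and AT4G20860, was at a log2 ratio of 0.37. FAH2 and AT4G20880, past AT4G20860, were at -0.34 and -0.64, so ratios below 1 were not particular to the family genes here.

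AT5G44360, on the minus strand of chromosome 5 from 17871924 to 17873829, had 0 counts in both libraries. The floor of 3 counts, the limit set for a count of 0, is 0.0759 CPM for the control and 0.0616 CPM for the estradiol sample, and the exact two-sided 95% Poisson interval for 0 reaches slightly higher, to 3.69 counts. The closest relative of AT5G44360 is AT4G20860, at 74.8% identity in coding sequence, which was the second most abundant member. The phosphate transporter gene PHT4;6 next to it was measured, at 577 and 511 counts.

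**Figure D3:**
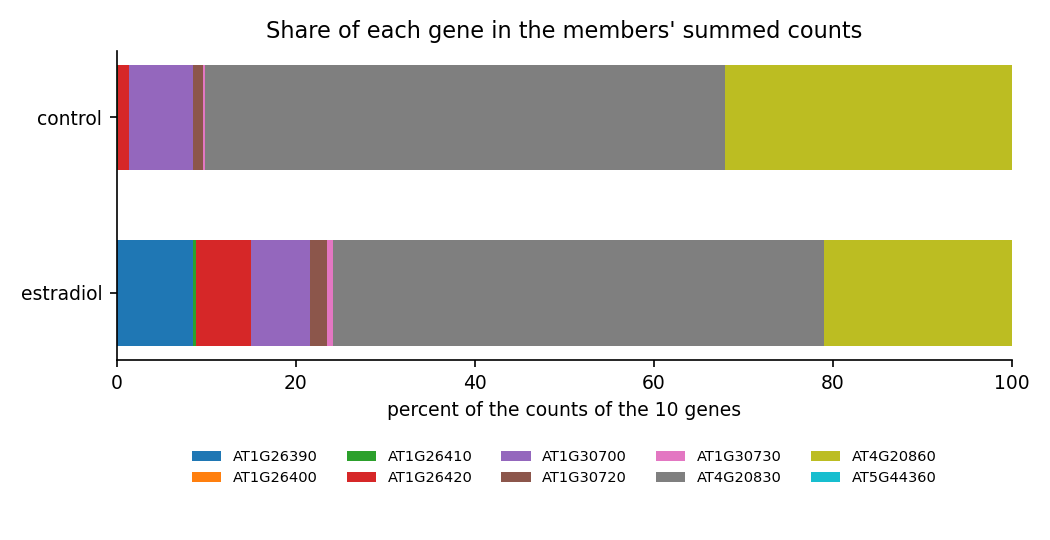
Share of each member in the summed counts of the 10 genes, as a percentage of counts, 1 bar per library. AT1G26390 goes from 0.0786% to 8.52%, AT1G26420 from 1.18% to 6.13%, and AT4G20860 from 32.1% to 21.0%.

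Summed over the 10 genes, counts were 16547 without and 19870 with estradiol, a ratio of 0.974 (0.955 to 0.995), while the make-up of the sum differed. AT4G20830 gave 58.0% of the summed counts in the control and 54.8% with estradiol, and AT4G20860 gave 32.1% and 21.0%. AT1G26390 and AT1G26420 took larger shares with estradiol, as the plot of shares shows. Without AT1G26390 the ratio of the sum was 0.892 (0.874 to 0.911).

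Levels were compared between genes as RPKM, which scales counts to transcript length and library size. In the control library AT4G20830 was at 123 RPKM, AT4G20860 at 72.7 and AT1G30700 at 14.7. The levels of AT1G26420 and AT1G30720 followed at 2.73 and 2.34 RPKM, with overlapping counting intervals. AT1G30730 was at 0.533 RPKM, and AT1G26410 and AT1G26390 were last at 0.234 and 0.186 RPKM, again with overlapping intervals.

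In the estradiol library AT4G20830 and AT4G20860 were still first, at 113 and 46.5 RPKM. AT1G26390 moved from the lowest place among the 8 measured members to the third, at 19.7 RPKM. AT1G26420 and AT1G30700 followed at 13.8 and 13.2 RPKM, with overlapping intervals. The lower places were held by AT1G30720 at 3.82, AT1G30730 at 1.36 and AT1G26410 at 0.772 RPKM, each apart from the next by its counting interval. With coding length in place of transcript length these levels were 1.11 to 1.29 times as high.

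**Figure D4:**
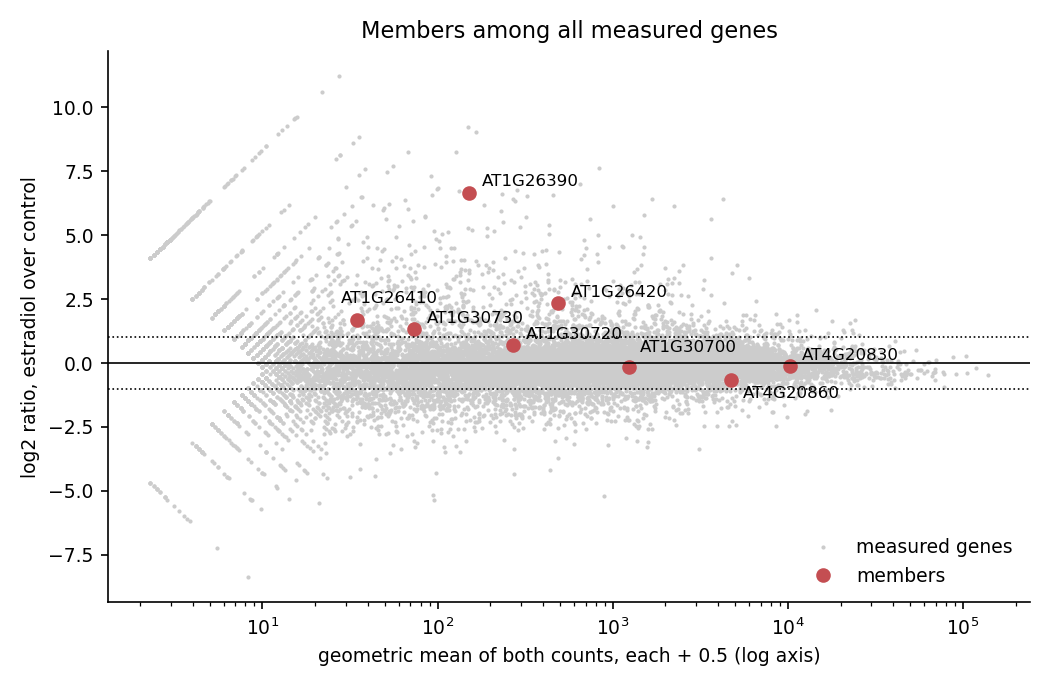
Log2 ratio of estradiol to control against the geometric mean of both counts (log axis) for all 20274 measured genes (grey) and the 8 measured members (red). Dotted lines mark log2 ratios of -1 and 1. AT1G26390 lies at 6.67 in the upper edge of the cloud, and the abundant members AT4G20830 and AT4G20860 lie at -0.12 and -0.65.

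Among the 17 other family genes 10 were measured, of which 3 were higher and 0 lower, with a median log2 ratio of 0.44. Over all measured genes 5.38% were higher and 4.64% lower. MEE23 (AT2G34790), known to oxidise monolignols, the precursors of lignin, went from 304 to 7273 counts, a ratio of 19.4 (17.3 to 21.8). Its transcript shares 19.5% of 50-base stretches with overlapping genes, so its count is uncertain. Its nearest relative AT1G30760, known for the same activity and 79.6% identical in coding sequence, had 189 and 145 counts, a ratio of 0.623 (0.498 to 0.777). AT5G44380 was 2.74-fold higher (2.56 to 2.94), from 1098 to 3713 counts, and FOX1 was the third. Whether the members differ from the other family genes was not tested.

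The remaining 7 measured family genes were neither. AT2G34810 had a ratio of 1.65, AT5G44400 of 1.43 and AT5G44390 of 1.29. AT5G44410 was at 0.577, with 1474 and 1048 counts. The other 7 genes of the family had at most 4 counts in either library, among them AT1G01980 and AT1G11770, which are also known as oligogalacturonide oxidase genes. Of the 4 known genes of that activity, the 2 measured in these explants were thus AT4G20830 and AT4G20840.

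**Figure D5:**
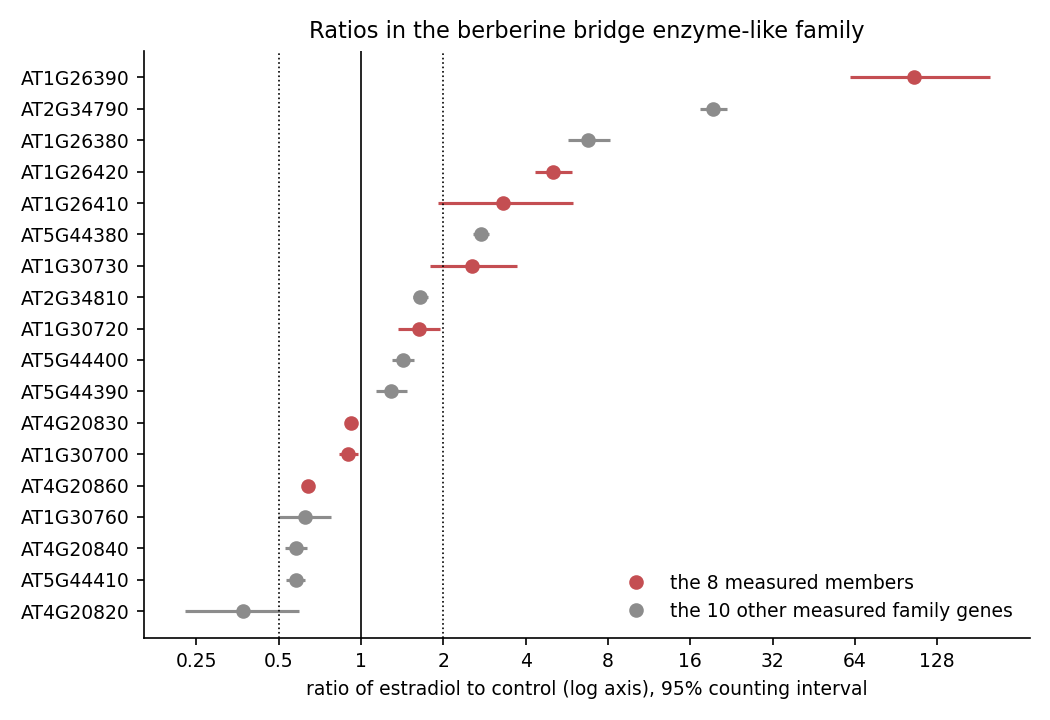
Ratio of estradiol to control on a log axis for the 18 measured family genes, with exact 95% counting intervals as lines, members in red and other family genes in grey. Dotted lines mark 0.5 and 2. The ratios run from 0.371 in AT4G20820 to 106 in AT1G26390, and 5 intervals lie wholly above 2.

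The motif TTGAC on either strand was present upstream of 8 of 10 members and in 50.4% of the 27443 windows of the same length before protein-coding genes. AT1G26420 and AT1G30720 had 4 matches each, 4 others (AT1G26410, AT1G30700, AT1G30730 and AT4G20860) had 2, and AT1G26390 and AT4G20830 had 1. Windows with 4 or more matches were 1.16% of all. Of the called members AT1G26390 thus had 1 match and AT1G26420 4, while AT1G30720 had 4 without being called, and no relation between matches and ratios was tested. FOX1 had 5 matches, a number reached or passed by 0.211% of windows. AT1G26400 and AT5G44360 had none, and their models are marked as partial, so the annotated start may not be the true start.

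Other motifs were rarer. TGACG, the core bound by TGA factors of salicylate responses, which overlaps TTGAC where TTGACG occurs, was found in 3 of 10 members and in 21.3% of windows. These 3 were AT1G26410, AT1G30720 and AT4G20860, the last with 2 matches. CATGTG, a motif bound by some NAC factors (13.1% of windows), CACGTG, the G-box (7.09%), and GCCGCC, bound by ERF factors (2.26%), were in none of the 10 windows. A match says only that these letters are present.

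Companion genes gave the surroundings of these oxidases. Of 8 measured genes listed around the indolic route of FOX1, some of them of camalexin synthesis, 4 were higher and 0 lower. Over all measured genes 5.38% were higher and 4.64% lower. The median log2 ratio of the 8 was 2.37. CYP82C2 and CYP82C3 reached the minimum of 10 counts only in the estradiol library, where CYP82C2 was high and CYP82C3, at 13 counts, was just past that minimum. Like the lists below, this list was chosen with earlier results of these data known, so nothing is read from its share. CYP82C2, the hydroxylase that follows FOX1 in the route, had 6 and 2469 counts, below the minimum of 10 in the control. CYP71A13, of camalexin synthesis, had 26 and 2769 counts, so it too was low in the control, as AT1G26390 was. CYP71A12, a close copy of CYP71A13, was at a ratio of 1.41 and not called. PAD3, the last enzyme of camalexin synthesis, was 14.1-fold higher (13.0 to 15.4). CYP82C3 had 0 and 13 counts, and the counting interval of its ratio starts at 2.47. CYP79B2 and CYP79B3, which make the shared precursor indole-3-acetaldoxime, had ratios of 1.88 and 0.951 and were not called. GGP1, also on the list, was at a ratio of 1.20 and not called. The 4 higher genes thus include CYP71A13 and PAD3 of camalexin synthesis and CYP82C3 with few counts.

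Genes for the release and perception of wall fragments were listed because such fragments are the substrates of the chromosome 4 oxidases. Of 10 genes 6 were measured, 3 were higher and 0 lower, beside the same 5.38% and 4.64% of all measured genes, with a median log2 ratio of 0.68. WAK1, a wall-associated kinase that binds pectin, had 11885 and 43538 counts, a ratio of 2.97 (2.91 to 3.03). WAK2, a related kinase, was 2.19-fold higher (2.13 to 2.27), and PGIP2, an inhibitor of fungal polygalacturonases, 2.29-fold (2.13 to 2.46). AT1G56145, a receptor kinase gene known for responses to cello-oligomers, was at a ratio of 1.17 and GH9A1, the glycosyl hydrolase KORRIGAN, at 1.08. GH9B1, another glycosyl hydrolase, had 297 and 239 counts, a ratio of 0.653 (0.548 to 0.777), the only one of the 6 below 1. The plant polygalacturonase genes ADPG1, AT2G41850 and QRT2 had at most 2 counts.

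Of 8 measured early markers of the response to microbial patterns, 2 were higher and 1 lower, against 5.38% and 4.64% of all measured genes, with a median log2 ratio of -0.39. YLS9 (also NHL10) was at 14 and 376 counts, a ratio of 21.8 (12.8 to 40.3). CYP81F2, of indole glucosinolate synthesis, was 2.53-fold higher (2.35 to 2.74). WRKY29 was lower, with 291 and 124 counts and a log2 ratio of -1.53. WRKY33, a regulator of camalexin genes that binds the TTGAC core, had 15213 and 9369 counts and was not called, the interval of its ratio, 0.487 to 0.513, including 0.5. CYP71A13, WAK2, GH9A1, WRKY29 and WRKY33 overlap other annotated genes, which makes their counts uncertain while the strand setting is unknown.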

How the data were processed

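RNA sequencing gave 1 library from estradiol-treated and 1 from control leaf explants, grouped by the treatment label. The authors deposited raw gene counts, whole numbers for 33602 loci and 5 summary lines, which did not enter library sizes. Ambiguous reads made up 2.05% and 1.91% of control and estradiol reads, and reads outside genes 0.742% and 0.693%. Per the submitters' processing notes, FastQC, HTSeq and DESeq were used with TAIR10. The aligner, its handling of reads that align more than once and the strand setting were not given in the sources used, so counts of near copies and overlapping genes are less certain.

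Libraries were scaled by TMM (edgeR 4.0.16, R 4.3.3; factors 0.993 and 1.007). Ratios have exact 95% Clopper-Pearson intervals conditional on the sum of both counts (SciPy 1.17.1), which cover counting error only, since there are no replicates. PCR copies were not marked by molecular identifiers, so the intervals may be too narrow even for counting error. Log2 ratios use a prior count of 0.5. DESeq2 1.42.0 size factors, total counts, upper-quartile factors, minimums of 50 counts or none, a 4-fold threshold, an assumed coefficient of variation of 0.2 and coding length were alternatives.

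Gene models and sequences are RefSeq's for TAIR10.1, with an entry for 32835 loci. Coding sequences were aligned globally (Biopython 1.88), with identity over aligned bases. Named genes are NAC1, the family, the 2 genes beside each run of members and those inside, up to 3 of each companion list by the bound nearest to 1, and genes that spell out a count, the last chosen after their values were seen. Members and lists were chosen with earlier results of these data known. With 2 libraries a pattern is a single ratio, so no gene was ranked by likeness.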

Additional observations from a re-analysis of the deposited data

How the results depend on the processing

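The 2 member calls, AT1G26390 and AT1G26420, and the absence of a lower member held under each of the 7 alternatives of scaling, count minimum, fold and assumed variation. Scaling, count minimum and fold could not have undone the calls. Main intervals of these 2 genes start at 61.6 and 4.34, past 4-fold, scaling shifts were small, and estradiol counts were 1692 and 1219. Stricter or wider rules cannot add a lower call. The lowest main interval of a measured member starts at 0.613, and AT1G26400 and AT5G44360 had no fewer counts with estradiol. Only the assumed variation could have removed a call, and its result holds for the value assumed. Each of the 8 measured members kept its direction, but this was fixed in advance and says nothing further. The count minimum, fold and assumed variation leave a ratio as it is, and every scaling shift was smaller than each member's log2 ratio in size. Log2 ratios of the members ran from 6.62 to 6.69 for AT1G26390, from 2.28 to 2.35 for AT1G26420 and from -0.70 to -0.63 for AT4G20860, and the scalings moved all ratios by -0.05 to 0.02. Among the other family genes 2 rather than 3 were higher past 4-fold and with the assumed variation. Over all genes, past 4-fold 468 were higher (2.31%) and 161 lower (0.794%), and with the assumed coefficient of variation 699 were higher (3.45%) and 393 lower (1.94%), by construction of stricter rules. With that variation the intervals of AT1G26390 and AT1G26420 ran from 48.9 to 244 and from 2.86 to 8.93. Those of AT1G26410 (1.52 to 7.40) and AT1G30730 (1.33 to 4.97) also stayed above 1. The intervals of AT1G30700 (0.517 to 1.57), AT1G30720 (0.917 to 2.91), AT4G20830 (0.531 to 1.59) and AT4G20860 (0.369 to 1.11) then included 1. The true variation between libraries cannot be estimated with 1 library a group. No paired analysis was possible because each group holds 1 library and no replicate number. AT1G26400 and AT5G44360 were too shallow for any ratio.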

Other observations

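Close copies in the family can be set side by side as pairs in which each gene is the other's nearest relative by coding sequence. There were 10 such pairs among the 27 family genes, and both genes were measured in 6. In 5 of these 6 both ratios were on the same side of 1, but their sizes differed. The genes of each of these 5 pairs also lie close together on the chromosome, so likeness in sequence and in position cannot be told apart. How often other pairs of genes are on the same side of 1 was not computed. AT1G26390 and FOX1, at 87.6% identity, had log2 ratios of 6.67 and 2.76. The log2 ratios of AT1G26410 and AT1G26420 were 1.69 and 2.33, and those of AT1G30720 and AT1G30730 were 0.70 and 1.34. AT4G20830 and AT4G20840 were both below 0, at -0.12 and -0.79, and AT5G44380 and AT5G44390 both above 0, at 1.46 and 0.37.

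The exception was the pair of monolignol oxidase genes, MEE23 at 4.28 and AT1G30760 at -0.68, which lie 4.96 apart on the log2 scale. These genes are on chromosomes 2 and 1. In the pairs of AT4G20860 with AT5G44360 and of AT5G44410 with AT5G44440, 1 gene was measured and the other had 0 counts in both libraries. In the remaining pairs, AT1G01980 with AT1G11770 and AT1G30710 with AT1G34575, neither gene was measured. No difference within a pair was tested.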
